A study of Mus musculus with 6 samples.

Results

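The proteasome subunit genes were taken as every gene of the expression table whose symbol is Psm followed by a letter from a to g and a number, and 48 of the 24421 listed genes met this rule. They were measured by RNA-seq of hepatic mRNA from C57BL/6 mice on a standard chow (SC) diet, 3 of them wild type (WT) and 3 heterozygous for a null allele of the PAI-1 gene (*Pai-1*+/-), which encodes a plasminogen activator inhibitor. All 6 mice were 21 weeks old in the sample labels, the livers were described as coming from mice fed ad lib, and the WT animals were labelled male. The paper describes the mice of both genotypes as male, the WT mice as littermates, and gives a slightly lower age. According to the methods, the heterozygotes came from breeding *Pai-1*-/- with WT mice, so the allele is carried in the whole animal and not in the liver alone. Each gene has 1 value here, the mean over all libraries of its size-factor normalised count as calculated by the authors, which pools WT and *Pai-1*+/- mice. Values per mouse and per genotype are not given, because the columns of the count table carry animal numbers that match no sample label. The difference between genotypes was therefore not analysed here, no SD or n accompanies a value, and all comparisons between genes are descriptions without a test.

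The proteasome is the protease that degrades ubiquitin-tagged proteins in the cytosol and nucleus. Its barrel-shaped 20S core is built from outer rings of alpha subunits, which gate the entrance, and inner rings of beta subunits, 3 of which carry the proteolytic sites. The 19S cap recognises ubiquitin, unfolds the substrate with a ring of ATPases and feeds it into the core. Interferon-gamma induces a separate set of catalytic beta subunits, *Psmb8*, *Psmb9* and *Psmb10*, which replace their constitutive partners in newly assembled particles to form the immunoproteasome, a source of peptides for MHC class I. Other members encode alternative activator caps, an inhibitor and chaperones that assist assembly and leave the finished particle.

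The mean normalised counts of all genes summed to 30045982 per library, and the 48 proteasome genes accounted for 0.355% of this sum. Hepatocyte markers were high, with mean normalised counts from 24370 for *Hnf4a* to 2155550 for *Alb*, as the liver label requires. Kupffer cell markers ranged from 173 for *Timd4* to 2374 for *Cd5l*, endothelial markers from 205 to 1273, cholangiocyte markers from 25.8 to 268 and leukocyte markers from 11.5 for *Nkg7* to 237 for *Ptprc*.

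Most proteasome genes lay in the upper part of the hepatic transcriptome. To compare genes of different length, each mean normalised count was divided by the kilobases of annotated exon of its gene, and this level per kb is used below unless another scale is named. Of the 48 genes, 47 had a mean normalised count of at least 10, the exception being *Psmb11* at 0. The median level of the 48 genes was 797 per kb, against 94.1 per kb over the 12877 genes with a count of at least 10 and an exon length. 44 of the 48 genes were above the median of all these genes, 37 above their upper quartile of 289 per kb and 18 above their 90th percentile of 894 per kb. As a ratio of the upper to the lower quartile, the proteasome genes were also less spread than genes in general. The quartiles of the proteasome genes were 404 and 1168 per kb, whereas those of all genes were 25.2 and 289 per kb, 11.5-fold apart. In units per kb the interval between the quartiles was wider for the proteasome genes.

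**Figure D1:**
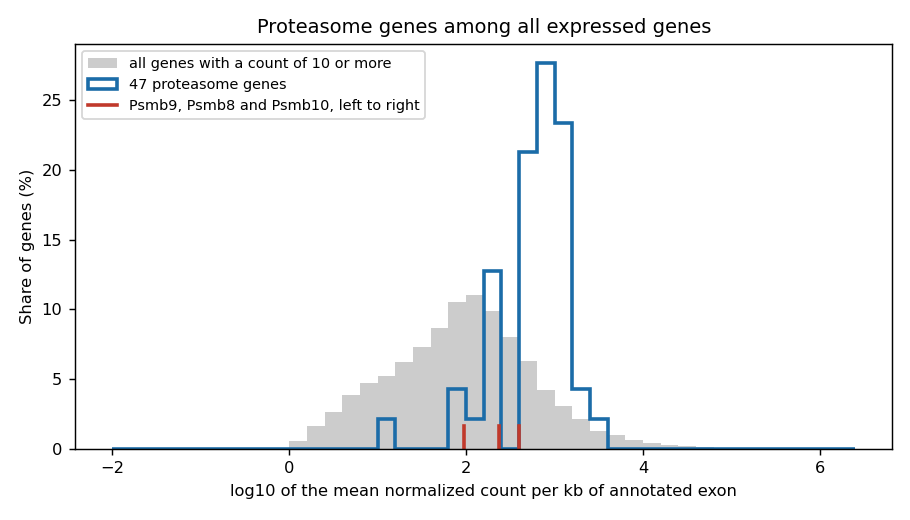
Share of genes (%) by log10 of the mean normalised count per kb of exon, for the 12877 genes with a count of at least 10 (grey) and for the 47 proteasome genes with such a count (blue outline). Most of the proteasome genes sit to the right of the grey peak, and red marks show the immunoproteasome genes *Psmb9* (93.6 per kb), *Psmb8* (234 per kb) and *Psmb10* (398 per kb).

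Among the alpha subunits, which form the outer rings and the gate of the core, *Psma6* had the highest level of all 48 genes, at 2578 per kb from a mean normalised count of 3181. The top place depended on the length, since *Psmb4* was first and *Psma6* second with the longest transcript, and *Psmb4* was first and *Psma6* in the third place with the coding length or with the transcript windows found in no other gene (unshared windows). The next alpha subunits followed closely on one another. *Psma4* stood at 1052 per kb, *Psma7* at 974 per kb, *Psma5* at 946 per kb and *Psma1* at 866 per kb. *Psma2* and *Psma3* were lower, with 541 and 494 per kb, although their mean normalised counts of 1989 and 1924 were within the range of the others. Their annotated exons are long, 3673 bases for *Psma2* and 3894 for *Psma3*, against 1234 for *Psma6*, and per kb of coding sequence *Psma2* (2833) and *Psma3* (2515) stood nearer to *Psma1* (3242) and *Psma4* (3183). The eighth alpha gene, *Psma8*, encodes a testis subunit that takes the place of *Psma7*. Its mean normalised count was 29.3 and its level 11.7 per kb, below every other gene of the family except *Psmb11*.

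The constitutive beta subunits ranged from 524 per kb for *Psmb3* to 2170 per kb for *Psmb4*, both of them structural subunits without a proteolytic site. *Psmb2* (1496 per kb), *Psmb1* (835 per kb), *Psmb3* and *Psmb4* make up the structural set. Per kb of exon, the catalytic subunits lay between these ends. *Psmb6*, the caspase-like subunit, stood at 1497 per kb, *Psmb7*, the trypsin-like subunit, at 984 per kb, and *Psmb5*, the chymotrypsin-like subunit, at 874 per kb. *Psmb5* had the lowest mean normalised count of the constitutive beta genes, 786, against 1204 for *Psmb3* and 4233 for *Psmb4*. The order depended on the length here too. Per kb of coding sequence *Psmb5* was the lowest of them at 992, below *Psmb3* at 1958. *Psmb1* rose to 5331 on that scale, near *Psmb4* at 5345. The medians of the alpha and constitutive beta genes were 906 and 984 per kb. Without *Psma8*, the 14 genes of the constitutive core differed by 5.22-fold between the lowest (*Psma3*) and the highest (*Psma6*). Of these 14, 12 lay within 2-fold of their median of 960 per kb. The number was 10 over the longest transcript, 13 per kb of coding sequence and 11 over the unshared windows.

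The comparison of the 19S cap with the core depended on the length used. Per kb of exon its 17 subunit genes had a median of 954 per kb, against 946 per kb for the 15 genes of the constitutive core, a ratio of core to cap of 0.992. Per kb of coding sequence the medians were 3183 for the core and 2241 for the cap, and per kb of the longest transcript they were 1949 and 1536, so that the core was higher on both. The ATPases, which form the unfolding ring at the base of the cap, had a median of 1433 per kb. *Psmc1* was highest at 2066 per kb, followed by *Psmc5* (1536 per kb), *Psmc3* (1455 per kb) and *Psmc4* (1411 per kb). *Psmc6* (862 per kb) and *Psmc2* (527 per kb) were lower than these 4 genes. The order within the ring depended on the length used. Per kb of coding sequence, the 6 ATPase genes ran only from 1758 for *Psmc5* to 3026 for *Psmc1*, a 1.72-fold range, and *Psmc5* moved from the second to the lowest place.

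The non-ATPase subunits had a median of 866 per kb and a 3.01-fold range. *Psmd2*, a large scaffold subunit of the base, had the highest level among them (1408 per kb) and the highest mean normalised count of all 48 genes (5685). *Psmd1*, the other large scaffold subunit, had the next highest count (4722), but its exons span 7265 bases and its level was 650 per kb. *Psmd4*, a receptor for ubiquitin chains, stood at 1327 per kb. *Psmd14*, the metalloprotease that removes ubiquitin from the substrate, stood at 555 per kb, and *Psmd7*, its partner in the lid, at 954 per kb. The other lid subunits were *Psmd8* (1201 per kb), *Psmd12* (1157 per kb), *Psmd6* (866 per kb), *Psmd3* (746 per kb), *Psmd13* (613 per kb) and *Psmd11* (468 per kb). Within the cap, 15 of the 17 genes lay within 2-fold of the median, and all 17 did so per kb of coding sequence. Over the longest transcript, and over the unshared windows, 16 did so.

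**Figure D2:**
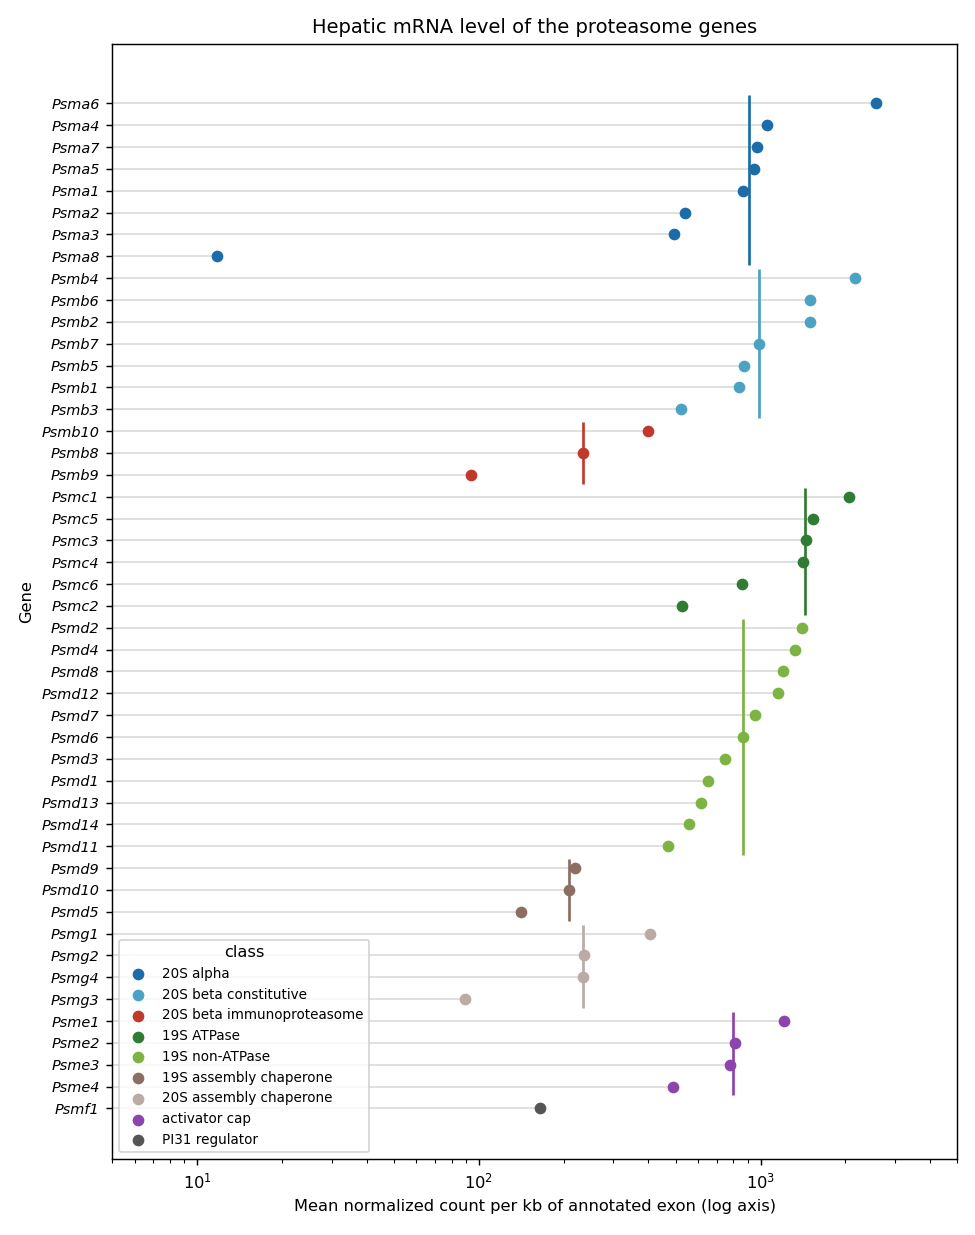
Mean normalised count per kb of annotated exon (log axis) for the 47 proteasome genes above 0, grouped by class. Each point is 1 gene, the authors' mean over both genotypes, and the vertical lines are class medians. The core, cap and activator classes have medians from 797 to 1433 per kb, and the immunoproteasome genes and assembly chaperones have medians from 209 to 235 per kb.

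The immunoproteasome genes were lower than the constitutive core. *Psmb10* stood at 398 per kb, *Psmb8* at 234 per kb and *Psmb9* at 93.6 per kb, and none of the 3 reached *Psma3*, at 494 per kb the lowest of the 14 core genes left when *Psma8* is set aside. The median of the constitutive core with *Psma8* was 4.05 times that of the immunoproteasome genes. The 3 genes also stayed below all of these 14 when the longest transcript, the coding length or the unshared windows served as the length, although per kb of coding sequence the gap was narrow, with *Psmb8* at 954 and *Psmb5* at 992. Their mean normalised counts were 679, 790 and 343, well above the count of 10 that marks a low value.

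Set against the constitutive subunit that each replaces, the immunoproteasome genes differed among themselves. *Psmb9* was 0.0625 times the level of *Psmb6*, and it was the lowest relative to its partner on each of the 5 scales tried, with ratios from 0.0388 to 0.133. *Psmb10* was 0.405 times the level of *Psmb7*, with ratios from 0.202 to 0.453. *Psmb8* was 0.267 times the level of *Psmb5* per kb of exon. This pair depended most on the scale. The mean normalised counts of *Psmb8* and *Psmb5* were nearly equal, 790 and 786, so that the ratio was 1.01 without division by length and 0.961 per kb of coding sequence. *Psmb8* has 3381 bases of annotated exon over 7 transcripts, against 899 bases for *Psmb5*. Summed over the 3 catalytic positions, the immunoproteasome genes made up 17.8% of the level per kb of exon and 20.4% of that per kb of coding sequence.

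**Figure D3:**
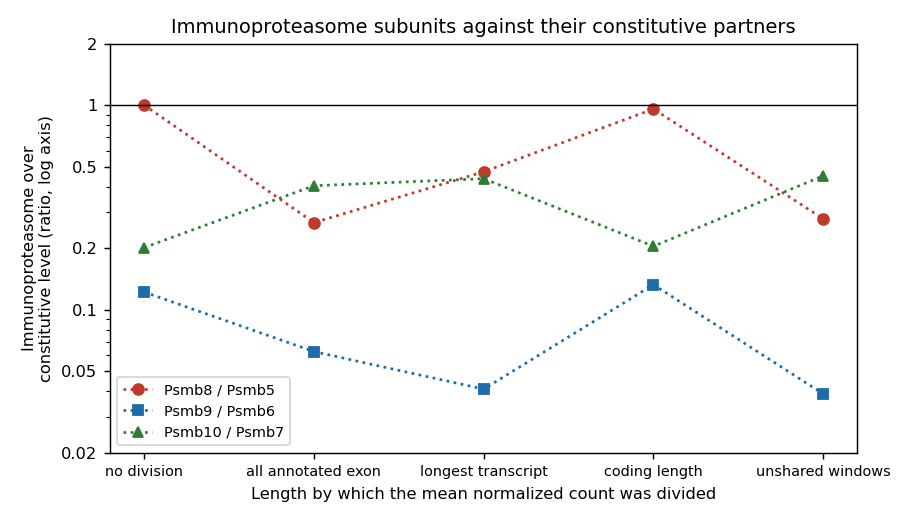
Ratio of each immunoproteasome gene to its constitutive partner (log axis) after dividing the mean normalised count by each of the lengths named on the horizontal axis. Dotted lines only join the points of a pair, and the solid line marks equal levels. *Psmb9*/*Psmb6* is lowest throughout (0.0388 to 0.133), while *Psmb8*/*Psmb5* ranges from 0.267 to 1.01.

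Other genes of antigen processing lay both within and above the range of the immunoproteasome genes. *Psmb8* (chr17:34197721-34201454, plus strand, mm10) and *Psmb9* (chr17:34181987-34187764, minus strand) lie in the MHC region beside *Tap1* and *Tap2*, which encode the transporter that carries proteasome-made peptides into the endoplasmic reticulum. *Psmb9* and *Tap1* lie on opposite strands with starts 211 bases apart, and their first 212 bases overlap. *Tap1* stood at 164 per kb, 1.75 times *Psmb9*, and *Tap2* at 215 per kb, 0.919 times *Psmb8*. Without division by length, *Tap1* (897) was also above *Psmb9* (343), but *Tap2* (812) was above *Psmb8* (790). The coding length and the longest transcript were not tried for the genes of this paragraph outside the rule. *Psmb10* (chr8:105935735-105938444, minus strand) lies outside this cluster. Of the interferon-related regulators, *Irf1* stood at 193 per kb and *Nlrc5*, the activator of MHC class I genes, at 100 per kb. *Erap1*, which encodes a peptide-trimming protease, stood at 408 per kb and *Tapbp*, which encodes the peptide-loading factor tapasin, at 867 per kb. The MHC class I heavy chain genes *H2-D1* and *H2-K1* stood at 1918 and 11541 per kb, and *B2m*, which encodes their shared light chain, at 48326 per kb. Immune cells of the liver express the immunoproteasome strongly, and markers of these cells were present in the same libraries, with a median of 372 per kb for the 6 Kupffer cell markers and 12.8 per kb for the 6 leukocyte markers. Their part in the levels of *Psmb8*, *Psmb9* and *Psmb10* was not tested. In such bulk samples, few cells with much mRNA and many cells with little cannot be told apart.

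The activator caps were close to the 19S cap. *Psme1* and *Psme2* encode the subunits of an interferon-inducible ring that opens the core without ubiquitin, and they lie 5911 bases apart on chromosome 14. *Psme1* stood at 1213 per kb and *Psme2* at 812 per kb, so the level of *Psme1* was 5.19 times that of *Psmb8*, another gene that interferon-gamma induces. With the longest transcript as the length the gap was smaller, with *Psme1* at 1349 and *Psmb8* at 414 per kb. *Psme3*, which encodes the related nuclear activator, stood at 782 per kb. *Psme4* encodes a single large activator protein, and its 8382 bases of exon brought a mean normalised count of 4114, the fourth highest of all 48, down to 491 per kb. *Psmf1* encodes a protein first described as a proteasome inhibitor, and it stood at 165 per kb, below all of the activators, but per kb of coding sequence it stood at 1307, above *Psme4* at 744.

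Per kb of exon, the chaperones that build the particle were lower than the subunits they assemble. *Psmg1* and *Psmg2* encode partners that guide formation of the alpha ring, and stood at 406 and 236 per kb, while *Psmg4* and *Psmg3*, which encode the other pair, stood at 234 and 89.2 per kb. The chaperones of the cap base, *Psmd9*, *Psmd10* and *Psmd5*, stood at 220, 209 and 142 per kb. All 7 were below the lowest cap gene and, with *Psma8* set aside, below the lowest core gene per kb of exon. This did not hold on every scale. Per kb of coding sequence *Psmd9* reached 2392, within the range of the cap. Without division by length, *Psmd9* (1593) was above *Psmd14*, the lowest cap gene (1565). On that scale *Psmd9* and *Psmd5* (1024) were also above the core gene *Psmb5* (786). The coding sequence of *Psmd9* is 666 bases and its annotated exons span 7248 bases, so its level depends more on the choice of length than that of any other member. *Pomp*, which encodes a further maturation factor of the core, stood at 503 per kb.

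*Psmb11*, which encodes the catalytic subunit of the thymoproteasome of thymic cortical epithelium, was listed at 0. It lies 3410 bases from *Psmb5* on chromosome 14, with 4791 bases of annotated exon.

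Some proteasome transcripts have near-identical copies elsewhere in the genome, which bears on their counts. The libraries were read as single ends of 75 bases, so each 75-base window of the longest annotated transcript was looked up in the transcripts of all other annotated genes. A window counted as shared only where all its bases were identical, on either strand. Copies that differ within every window, or that lie outside the annotation, would be missed. For 30 of the 48 genes no window was shared in this sense, among them *Psma6*, *Psmb4*, *Psmb6*, *Psmb7*, *Psmb9* and *Psmb10*. The share was above 10% for 7 genes. It was highest for *Psme2*, with 51.7% of windows found in its copy *Psme2b*, followed by *Psmb5* with 330 of 825 windows, mostly in the processed pseudogene *Gm3375*, and *Psma5* with 39.8%, mostly in *Gm8394*. *Psma3* (21.3%), *Psma4* (16.7%), *Psmd2* (14.9%) and *Psmd13*, in that order, made up the rest. The shared windows of *Psmd13* were all with *Sirt3*, whose exons overlap its own on the opposite strand. They mark an overlap at the same locus and not a copy elsewhere. A smaller part of the share of *Psma4* and *Psmb5* was likewise with overlapping genes, *AY074887* and *Mir686*. How reads that fit several places were counted is not given in the sources used here, so the values of the genes with copies elsewhere are uncertain. If such reads were left out, dividing by the unshared windows is the closer scale for the genes with copies. These windows come from the longest transcript, so the like comparison is with that length. *Psmb8*/*Psmb5* was 0.474 over the longest transcript and 0.279 over the unshared windows. On the latter, *Psmb5* stood at 1587 and *Psmb8* at 443 per kb of such windows. *Psme2* moved to the second place, from the 19th over the longest transcript and the 24th per kb of exon.

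**Figure D4:**
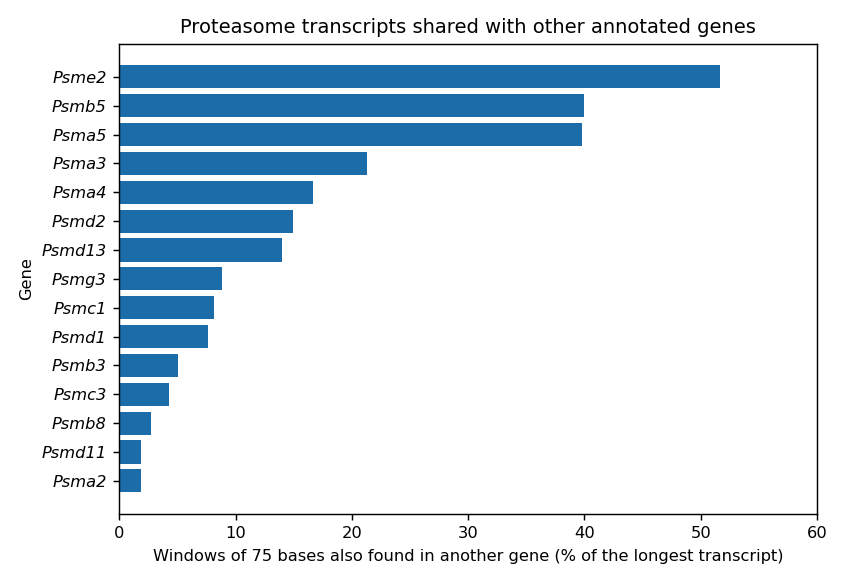
Share of 75-base windows of each gene's longest transcript that also occur in a transcript of another annotated gene (%), for the 15 proteasome genes above 1%. *Psme2* (51.7%), *Psmb5* (330 of 825 windows) and *Psma5* (39.8%) stand apart from the others.

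Exons of 13 proteasome genes overlap those of another annotated gene, and the sources used here do not say whether reads were counted by strand. Of the immunoproteasome genes, *Psmb8* shares 498 bases (14.7% of its exon) with the antisense gene *Gm20496*, and *Psmb9* shares 212 bases (5.79%) with *Tap1* on the opposite strand. *Psmb7* shares 405 bases with *Nek6*, *Psmd13* shares 10.1% of its exon with *Sirt3*, and *Psmd9* shares 1849 bases, 25.5% of its exon, with *Gm26745*, all on the opposite strand. Levels of these genes are uncertain, and the share of bases does not bound the error. *Tap1* (897) and *Sirt3* (2154) had higher mean normalised counts than *Psmb9* (343) and *Psmd13* (2071), while *Nek6* (1476) was lower than *Psmb7* (3365).

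Genes that serve the proteasome were measured beside it. *Nfe2l1* encodes the transcription factor that raises proteasome genes when the protease is impaired, and it stood at 807 per kb, above its relative *Nfe2l2* at 548 per kb. *Vcp*, the segregase that extracts ubiquitinated proteins, stood at 1297 per kb, and *Ddi2*, the protease that activates the *Nfe2l1* product, at 126 per kb. Of the ubiquitin genes, *Rps27a* (1628 per kb) was above the median of every class of proteasome genes, and *Ubb* (239 per kb) was below those of the core and the cap. *Uba1*, the main ubiquitin-activating enzyme, stood at 1282 per kb, and the shuttle factors *Rad23b* and *Ubqln1* at 1251 and 1277 per kb. Subunits of the cap whose symbols fall outside the rule were lower than the 17 cap genes, with *Adrm1* at 317 per kb and *Shfm1*, now named *Sem1*, at 334 per kb. Their mean normalised counts, 1412 and 1182, were also below the lowest of the cap genes, 1565. The coding length and the longest transcript were not tried for the genes of this paragraph. The cap-associated deubiquitinases *Usp14* and *Uchl5* stood at 200 and 204 per kb.

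The 250 bases before the start of each gene were searched for short motifs on both strands, without regard to overlap between motifs, using RefSeq promoter sequences on GRCm38.p6, which covered 40 of the 48 genes. The antioxidant response motif, TGACNNNGC, is the kind of site that the *Nfe2l1* product binds. It was present in 5 of the 40 genes (12.5%), against 10.1% of 27025 promoters of all genes. These shares are close, so the motif does not set the proteasome genes apart. Its matches are printed with up to 10 flanking bases, because *Psmb5* and *Psmb6* among them are the constitutive partners of immunoproteasome genes. Capitals mark the match, and *Psmc6* and *Psmd12* carry it as the reverse complement. The sequence given for *Psmb8* is its match to the STAT motif TTCNNNGAA, of the kind that interferon-gamma acts through. The match of *Psmg1* to this motif is not printed. Such matches were no more common among the proteasome genes than among all promoters.

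*Psmb5* (chr14:54618024-54618052, minus strand): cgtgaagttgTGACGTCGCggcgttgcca
*Psmb6* (chr11:70525338-70525356, plus strand): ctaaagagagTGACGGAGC
*Psmd9* (chr5:123228149-123228177, plus strand): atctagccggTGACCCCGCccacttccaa
*Psmc6* (chr14:45329587-45329615, plus strand): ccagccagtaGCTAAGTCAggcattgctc
*Psmd12* (chr11:107479278-107479299, plus strand): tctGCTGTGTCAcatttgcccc
*Psmb8* (chr17:34198088-34198116, plus strand): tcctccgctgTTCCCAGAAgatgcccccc

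The matches of *Psmb6*, *Psmd9* and *Psmb5* lie within 50 bases of the start, with their first bases 9, 31 and 47 bases before it, and those of *Psmc6* and *Psmd12* begin 227 and 247 bases before it. Starts are those of RefSeq, and the matches of *Psmb8* and *Psmd9* lie inside the bounds that GENCODE gives these genes. The STAT motif was present in 2 of the 40 genes (5.0%), *Psmb8* and *Psmg1*, against 7.18% of all promoters. The interferon response motif, GAAA repeated after 2 further bases, was present in *Psmb3*, *Psmd4* and *Psmd9* (7.5%, against 3.04% of all promoters) and in none of the 3 immunoproteasome genes in this window. The ETS motif CCGGAAG was present in 27.5% of the genes, against 7.05% of all promoters. The 11 genes with it included 8 of the 14 cap genes with a promoter sequence (*Psmc1*, *Psmc2*, *Psmc6*, *Psmd2*, *Psmd4*, *Psmd6*, *Psmd11* and *Psmd12*) and 0 of the 11 alpha and constitutive beta genes with one. The GC box GGGCGG was present in 55.0%, against 32.9% of all promoters, and CCAAT in 35.0% against 34.5%, with 5 of the 7 alpha genes among them. The promoters of all genes were not limited to genes expressed in these livers, so they are not matched to the proteasome genes in expression. Differences between the classes were not tested. These are matches of letters and no binding was measured.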

How the data were processed

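Livers of 3 WT and 3 *Pai-1*+/- mice gave 1 mRNA library each. The authors aligned 75-base reads to mm10 with STAR and analysed them with DESeq2, both in RNA Express. The submitters' processing notes also name HOMER. Versions, annotation, strand setting and the treatment of reads that fit several places are not given in the sources used here. The signal used is the authors' deposited baseline mean, in which size-factor normalised counts of every library are averaged per gene. The 6 columns of the count table match no sample label and were not used, so the planned count test was not run, and the depth of each library is unknown here. The deposited fold changes, standard errors and p-values of the authors' own comparison were not used.

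Exon, transcript and coding lengths came from GENCODE M21 on GRCm38 (mm10). All 48 proteasome genes matched by symbol, as did 99.3% of the 12971 genes with a mean normalised count of at least 10. Lengths were the union of annotated exons, or as alternatives the longest transcript, the coding length and, chosen after seeing the data, unshared windows. The calculations were checked on simulated sequences and intervals. All genes of the rule are named, with genes from the pathway and marker lists. A few listed genes are not reported here. The members and lists were chosen with earlier results of these data known. Python 3.11.15, NumPy 2.4.6, pandas 2.3.3 and Matplotlib 3.10.9 were used.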

Additional observations from a re-analysis of the deposited data

How the results depend on the processing

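Level per kb depended on the length used, and no replicate spread was available to set against these shifts. With the longest transcript, the coding length and, chosen after seeing the data, the unshared windows, the median over the 48 genes was 1111, 2163 and 1355 in place of 797 per kb. In the same order, the medians were 1949, 3183 and 2025 for the constitutive core (946 as reported), 1536, 2241 and 1630 for the 19S cap (954), 414, 829 and 443 for the immunoproteasome genes (234), and 1107, 2511 and 1148 for the activator caps (797). The ratio of core to cap, 0.992 per kb of exon, was therefore higher on these scales. Geometric means in place of medians were 746, 959, 206 and 784 for the same classes, and the core median without *Psma8*, chosen after seeing the data, was 960. Restricting the classes to genes with a count of at least 10 could not change these 4 medians, since *Psmb11*, the only gene under that count, belongs to none of them. For the longest transcript, the coding length, no division and the unshared windows, *Psmb8*/*Psmb5* was 0.474, 0.961, 1.01 and 0.279, *Psmb9*/*Psmb6* was 0.0409, 0.133, 0.122 and 0.0388, and *Psmb10*/*Psmb7* was 0.439, 0.205, 0.202 and 0.453. Without division *Psmb8* was thus no longer below *Psmb5*. The 10 genes with the highest level per kb of exon shared 6, 4 and 7 genes with the 10 highest by the longest transcript, the coding length and the unshared windows. No paired analysis was possible because the per-animal columns carry no replicate number and could not be matched to a genotype, and leaving out a mouse could not be done for the same reason. Without per-mouse values the precision of these levels is unknown.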

Other observations

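Of the genes whose symbols begin with Psm but fall outside the rule, *Psme2b*, the copy of *Psme2*, had a mean normalised count of 57.6, or 68.9 per kb of exon. *Psmc3ip*, which encodes a protein of meiotic recombination and no proteasome subunit, had a mean normalised count of 8.16.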
